A study of Mus musculus with 54 samples.

Results

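The cholesterol and fatty acid synthesis genes described here are 30 genes, taken by symbol from a fixed list, of the 19068 genes in an expression table of the late proximal tubule of the mouse kidney. They comprise 18 enzymes of cholesterol synthesis, 5 genes called regulators here, the sterol carrier Stard4, and 6 genes of fatty acid synthesis. Of the 5 regulators, Srebf1 and Srebf2 encode the sterol regulatory element-binding proteins (SREBPs), and Scap, Insig1 and Insig2 control them. Of the 18 enzymes, 7 are of the mevalonate pathway, 3 make squalene and turn it into lanosterol, and 8 lead from lanosterol to cholesterol. The rule that took the 30 genes by symbol used no measured value, but the list was chosen with earlier results of these data known. The RNA came from the S3 segment, the last part of the proximal tubule, cut out by laser as tubules that bound the lectin LTL and lacked the glucose carrier SGLT2, with 70 to 80 tubules per sample. The mice were DBA males, 14 weeks of age, and all received a treatment for 2 weeks.

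The study asks how the S3 segment responds to type 1 diabetes, to loss or block of sodium-glucose carriers, and to a GLP-1 receptor agonist. Nondiabetic mice carried Ins2+/+ and diabetic littermates carried Ins2 Akita/+, a mutation of an insulin gene that makes proinsulin misfold and damages the beta cells. Within each, mice were Sglt1+/+ (wild type) or Sglt1-/- (knockout of the carrier encoded by Slc5a1; the labels name no Cre or tissue restriction). Each of these 4 combinations was given vehicle or dapagliflozin, an SGLT2 inhibitor, at 10 mg per kg of diet, and the diabetic wild type was also given semaglutide, which activates the GLP-1 receptor, at a daily 3 nmol per kg of body weight. This gives 9 groups with 6 libraries each, except 5 for diabetic (Akita) wild-type mice on dapagliflozin and 5 for those on semaglutide, 52 libraries in all. The labels do not tie libraries to animals. The p-values therefore measure the spread between these samples, and they would be too small if libraries shared a mouse.

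Cells make cholesterol from acetyl-CoA by way of mevalonate, squalene and lanosterol. SREBP2 switches on most enzymes of that route and SREBP1 most genes of fatty acid synthesis. Both are held in the endoplasmic reticulum by SCAP bound to an INSIG protein while sterols are plentiful, and are cleaved and sent to the nucleus when sterols fall. The transcript of Srebf1 also responds to insulin in liver, and the proximal tubule is known to store lipid in diabetes.

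Promoter windows of 250 bases before the RefSeq start were at hand for 24 of the 30 genes (build GRCm38.p6); Fdft1, Sqle, Fdps, Stard4, Scd1 and Scd2 had no entry. Each window was searched on both strands for a sterol regulatory element (TCACNCCAC), a CCAAT box (CCAAT), which binds NF-Y, a GC box (GGGCGG), which binds SP1, and an E-box (CACGTG); no motif here contains another. This form of the sterol regulatory element was found in 1 of the 24 genes, Hmgcs1, and in 1.22% of all 27025 gene symbols with a window. Only exact matches were counted, so variant elements in the other genes would be missed. A CCAAT box stood in 19 of the 24 genes and in 37.5% of all symbols, a GC box in 20 of 24 and in 35.4%, and an E-box in 5 of 24 and in 6.86%. Some genes have several annotated starts, and a gene was counted once if any of its windows held the motif. The only Acaca window, chr11:84195188-84195437, held no motif. It lies inside the annotated gene, which begins at 84129672, so the bases before that start were not searched. Windows are printed for Hmgcs1, the gene with the sterol element match, and for Acly, the synthesis enzyme that passed the test in diabetes. Windows of 2 starts of Srebf1, the regulator with the lowest p among members that were lower, are printed too. They are written 5′ to 3′ on the gene's strand, with motif matches in capitals.
Hmgcs1, chr13:119690101-119690350, + strand: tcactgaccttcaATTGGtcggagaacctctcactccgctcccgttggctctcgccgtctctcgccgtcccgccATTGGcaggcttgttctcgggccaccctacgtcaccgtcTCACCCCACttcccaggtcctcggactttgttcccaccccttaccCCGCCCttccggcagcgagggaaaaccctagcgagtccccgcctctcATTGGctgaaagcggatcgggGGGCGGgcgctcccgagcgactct
Acly, chr11:100528001-100528250, - strand: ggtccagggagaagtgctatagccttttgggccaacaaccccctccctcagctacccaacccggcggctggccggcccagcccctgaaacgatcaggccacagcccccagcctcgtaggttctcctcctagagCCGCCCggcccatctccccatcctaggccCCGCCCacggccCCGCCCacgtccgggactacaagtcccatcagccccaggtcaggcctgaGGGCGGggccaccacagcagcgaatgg
Srebf1, chr11:60220628-60220877, - strand: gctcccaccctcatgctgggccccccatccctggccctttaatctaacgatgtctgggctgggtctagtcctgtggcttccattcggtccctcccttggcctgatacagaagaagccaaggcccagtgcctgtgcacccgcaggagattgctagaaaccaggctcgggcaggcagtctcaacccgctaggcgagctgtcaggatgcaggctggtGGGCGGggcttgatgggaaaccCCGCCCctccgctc
Srebf1, chr11:60210472-60210721, - strand: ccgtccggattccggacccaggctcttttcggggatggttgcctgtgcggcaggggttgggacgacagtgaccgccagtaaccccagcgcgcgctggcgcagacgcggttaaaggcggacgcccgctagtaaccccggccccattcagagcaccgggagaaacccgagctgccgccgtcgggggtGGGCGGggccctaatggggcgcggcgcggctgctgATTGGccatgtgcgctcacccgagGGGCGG
The annotated genes span chr13:119690379-119708260 (Hmgcs1), chr11:100476353-100528000 (Acly) and chr11:60199089-60222581 (Srebf1) in GRCm38. In Hmgcs1 the sterol element reads TCACCCCAC and begins 137 bases before the start, among 3 CCAAT boxes and 2 GC boxes. Acly had 4 GC boxes and no CCAAT box. The 2 printed Srebf1 windows had 2 GC boxes each, with a CCAAT box in 1 of them. Srebf1 has 1 more window, chr11:60222582-60222831, not printed, with 1 CCAAT box and no GC box. The expression table gives 1 value per gene, so the starts of Srebf1 cannot be told apart in the RNA. A match is a run of letters and no evidence of binding.

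The libraries held 16206 to 18421 genes with a value. Levels are in TPM, a read share scaled by transcript length, and the TPM of a library summed to between 984393 and 2253870 over the genes of the table, so the values are not shares of 1 common total. Slc5a1, the targeted gene, averaged 0.776 to 0.828 TPM in the 4 knockout groups and 55.01 to 86.2 TPM in the 5 wild-type groups. Summed markers of the S3 segment (7 genes, Slc5a1 among them) ranged from 687 to 3010 TPM over nondiabetic and from 1313 to 2944 TPM over Akita libraries on vehicle or dapagliflozin. Markers of the thick ascending limb (3 genes) ranged from 300.02 to 2780 and from 182 to 1132 TPM, so RNA of neighbouring tubules was present. In such bulk samples, fewer cells of a type and less RNA per cell cannot be told apart. Of an adipocyte list of 7 genes only Plin4 was analysed here, at medians of 1.96 and 1.71 TPM. In nondiabetic mice, replicates 1 and 2 of wild type on vehicle and replicate 3 of knockout on dapagliflozin lay lowest on the first principal component in an earlier account of these data, and results are given without them where that changes a call.

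All 30 genes were expressed, with no library at 0, and all passed the filter of a mean of at least 1 TPM, as did 15424 genes of the table. Cyp51, lanosterol demethylase, was the highest of all members at 352 ± 114 TPM (SD over 52 libraries). Sc5d, a late desaturase, was the lowest enzyme from lanosterol to cholesterol at 6.15 ± 3.42 TPM. The other 6 enzymes of that stretch lay in between, from Tm7sf2 (8.47) and Dhcr7 (11.04) to Ebp (54.9 TPM). Among the 7 mevalonate enzymes Hmgcs1, which makes HMG-CoA, was highest (99.2 ± 24.6 TPM), close to Idi1, isopentenyl-diphosphate isomerase (97.6 ± 40.7). Pmvk, phosphomevalonate kinase, was lowest (11.5 ± 4.69 TPM). Of the steps that make squalene and turn it into lanosterol, Sqle, squalene epoxidase, averaged 119 ± 29.2 TPM, Lss 15.4 ± 6.76 and Fdft1 13.2 ± 4.36 TPM. The levels of neighbouring steps thus differed by several fold within every stretch of the route.

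Among the regulators Scap was highest, at 122 ± 24.3 TPM, and Insig2 lowest, at 14.7 ± 5.11 TPM. Srebf2 averaged 54.8 ± 9.19 TPM, Insig1 39.9 ± 11.96 and Srebf1 29.8 ± 11.99 TPM. Stard4, which carries sterols between membranes, averaged 31.2 ± 8.62 TPM. Among the fatty acid genes Acly, which makes cytosolic acetyl-CoA from citrate, was highest at 114 ± 28.4 TPM, before the stearoyl-CoA desaturase Scd1 (88.2 ± 55.9) and fatty acid synthase, Fasn (72.8 ± 17.7). Acaca, acetyl-CoA carboxylase, averaged 23.1 ± 6.74, Scd2 7.50 ± 3.77 and the elongase Elovl6 2.11 ± 1.67 TPM. Across libraries Srebf2 was the steadiest member, with a highest value 2.05 times its lowest. Elovl6 spanned 20.3-fold, Scd1 16.8-fold and Idi1 15.8-fold.

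**Figure D1:**
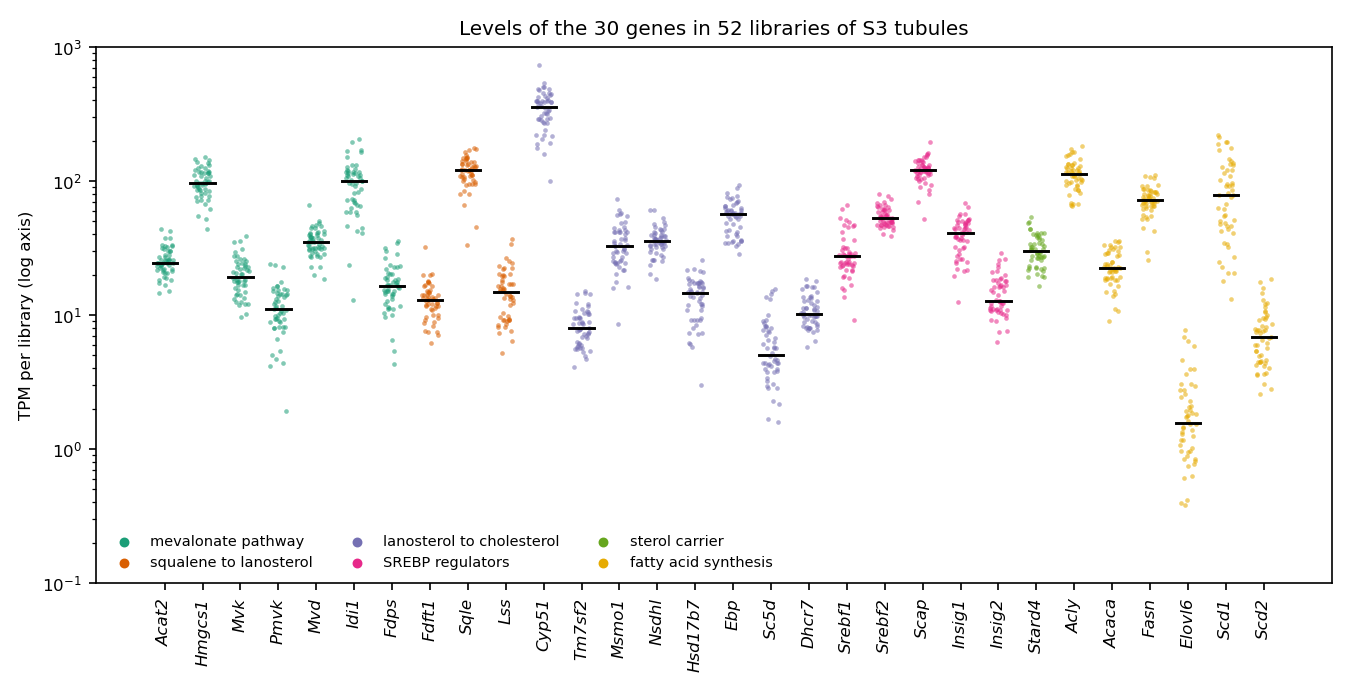
TPM of each of the 30 genes in 52 libraries on a log axis, 1 point per library, coloured by role, with the median as a bar. Cyp51 is highest and Elovl6 lowest, and Scd1 and Elovl6 are the most spread.

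Paralogs differed in level. Srebf1 exceeded Srebf2 in 1 of 52 libraries, with a median ratio of 0.498. Insig1 exceeded Insig2 in 51 of 52, with a median ratio of 2.75, and Scd1 exceeded Scd2 in all 52, with ratios from 1.24 to 40.0. Several members share bases with another annotated gene. In GENCODE vM21, 11 members have exon bases in common with another gene, and in 5 of them (Hmgcs1, Fdps, Fdft1, Tm7sf2 and Scap) this covers at least 10% of the exon bases. For Fdps and Tm7sf2 the other gene lies on the same strand, so counting by strand would not separate them. For Hmgcs1, Fdft1 and Scap it lies on the opposite strand. The sources used here do not give whether reads were counted by strand. The values of these 5, and of Acat2, which has a near-identical paralog, are uncertain. Acly and Stard4 share no exon bases with another gene.

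Diabetes was examined over all 4 matched pairs of groups, 23 Akita against 24 nondiabetic libraries. Stard4 and Acly rose, by 1.28-fold and 1.27-fold on the log2(TPM + 1) scale. Below 0 were 9 of the 30 members, and none of these passed the test given next. In limma's moderated test, adjusted by Benjamini-Hochberg over all 15424 genes, 149 genes passed an adjusted p under 0.05 (0.966% of the genes tested, of which 0.784% higher and 0.182% lower). Of the 30 members 2 passed, both higher. An unadjusted p under 0.05 was found for 8 of 30 members, 5 higher and 3 lower, against 13.4% of all genes. The median change of the members was 0.077 on the log2(TPM + 1) scale, with 21 of 30 above 0, against a median of 0.027 and 56.5% above 0 for all genes. The members' median was -0.028 without the 3 libraries that lay lowest on the first component and -0.024 when the score of other cells entered the fit, so its sign is not settled.

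Stard4 was between 16.5 and 41.1 TPM in the nondiabetic libraries (median 26.7) and between 21.99 and 53.8 TPM in the Akita libraries (median 33.6). The ranges overlap, with 19 of 23 Akita libraries above the nondiabetic median. Its log2 change was 0.36 ± 0.094 (SE, adjusted p = 0.0476). Acly was between 65.2 and 184 TPM in nondiabetic libraries (median 102) and between 66.6 and 173 TPM in Akita libraries (median 125). Of the Akita libraries 20 of 23 lay above the nondiabetic median, and the log2 change was 0.35 ± 0.092 (adjusted p = 0.0485). By group, Stard4 averaged 24.7 ± 9.16 TPM (SD) in nondiabetic wild type on vehicle, 29.3 ± 6.38 on dapagliflozin, 25.6 ± 2.87 in knockout on vehicle and 26.5 ± 5.63 on dapagliflozin. In Akita mice it averaged 40.8 ± 9.54, 28.2 ± 5.28, 36.6 ± 9.38 and 32.2 ± 5.53 TPM in the same order, and 37.3 ± 7.88 on semaglutide. Acly averaged 98.5 ± 22.8, 106 ± 40.5, 106 ± 14.4 and 96.7 ± 25.04 TPM in the nondiabetic groups in that order, 156 ± 13.9, 127 ± 27.6, 122 ± 16.8 and 110.3 ± 22.8 TPM in the Akita groups, and 106 ± 22.1 on semaglutide. For both genes the Akita wild-type vehicle group was the highest of the 9. Both calls lie at the threshold. With single libraries left out, Stard4 passed in 14 and Acly in 13 of 47 fits, and neither passed without the 3 libraries that stood apart, although both changes stayed above 0 in every fit.

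Many markers of other cells had lower values in Akita libraries, though none passed the test, and the scale of the libraries differed in vehicle mice. The sum of TPM averaged 1857900 in Akita and 1422240 in nondiabetic wild-type vehicle libraries, and 1644200 and 1379900 in knockout vehicle libraries. On dapagliflozin it averaged 1603190 in Akita and 1847240 in nondiabetic wild-type libraries, the other way round, and 1368310 and 1363800 in knockout ones. Mitochondrial rRNA took 40.1 and 33.4% of the sum in the wild-type vehicle pair, 35.2 and 31.5% in the knockout vehicle pair, 38.1 and 38.5% in the wild-type dapagliflozin pair and 31.3 and 33.0% in the knockout dapagliflozin pair. After group means were removed, Stard4 followed the log2 sum of TPM at r = 0.60 (Spearman's rho 0.56, 0.58 without the 2 libraries farthest in the sum, 52 libraries). It followed the percent of mitochondrial rRNA at r = 0.47 (rho 0.46). Of 7 macrophage and dendritic cell markers, 6 were lower in Akita libraries, with summed levels of 312 to 505 TPM against 326 to 653 in nondiabetic ones. Csf1r made up most of that sum, with a mean of 320 TPM over the 52 libraries. The other markers of that list averaged from 2.94 (C1qb) to 93.8 TPM (Cd74). C1qa was at 0 in 2 libraries and C1qb in 1. All 6 endothelial markers were lower too (74.7 to 142 against 77.8 to 203 TPM, none at 0), and no marker passed the test. When the log2 TPM sum entered the fit, the log2 changes were 0.28 for Stard4 and 0.33 for Acly, and with the score of other cell types 0.35 and 0.26, below the threshold in each case.

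None of the 18 enzymes of cholesterol synthesis passed. Of the mevalonate enzymes 5 of 7 had changes above 0 (median log2 change 0.14), of the squalene steps 3 of 3 (0.20) and of the steps from lanosterol 7 of 8 (0.055). Idi1 had the largest of these changes, 0.55 ± 0.19 (adjusted p = 0.183), with Akita libraries from 46.3 to 207 TPM (median 108) and nondiabetic ones from 13.1 to 194 TPM (median 77.6). Its value was 0.26 when the score of other cells entered the fit and 0.29 without the 3 libraries. Within groups the enzymes ran against that score, which was lower in Akita mice, with r from -0.65 for Ebp, -0.62 for Mvd, -0.57 for Hmgcs1 and -0.56 for Idi1 to -0.047 for Dhcr7 (52 libraries). The mean score was 3.58 to 3.64 in the 4 Akita groups and 3.71 to 3.96 in the 4 nondiabetic groups. Sqle had a log2 change of 0.25 ± 0.12 (adjusted p = 0.363). Cyp51, the most abundant member, had a log2 change of -0.055 ± 0.15, and Hmgcs1, the gene with the sterol element match, 0.075 ± 0.11. The kinases of mevalonate, Mvk and Pmvk, had -0.13 ± 0.13 and -0.036 ± 0.17, and Acat2, Mvd, the decarboxylase, and Fdps, farnesyl diphosphate synthase, 0.16, 0.14 and 0.15. Squalene synthase, Fdft1, had 0.17 and lanosterol synthase, Lss, 0.20. Of the later enzymes Sc5d had 0.25, Nsdhl, a sterol dehydrogenase and decarboxylase, 0.17, Tm7sf2, a sterol reductase, 0.13, and Msmo1 0.080. Hsd17b7, Dhcr7 and the isomerase Ebp lay between 0.0044 and 0.031.

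Of the 5 regulators none passed. Srebf1 had the smallest p of the members that were lower, with a log2 change of -0.48 ± 0.14 (adjusted p = 0.0740). It lay between 9.17 and 61.9 TPM in nondiabetic (median 30.3) and between 13.8 and 32.3 TPM in Akita libraries (median 24.1), and 22 of 23 Akita libraries were below the nondiabetic median. The lowest value of all was in nondiabetic knockout dapagliflozin replicate 1, and without that library Srebf1 passed (-0.56, adjusted p = 0.00979). Srebf1 also followed the percent of mitochondrial rRNA within groups, at r = -0.50 (rho -0.38, -0.38 without the 2 farthest libraries). Srebf2 had a change of -0.10 ± 0.069, and Scap, Insig1 and Insig2 had changes of 0.037, 0.098 and 0.072.

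The fatty acid genes diverged in sign. Beside Acly, Fasn had a log2 change of 0.26 ± 0.11 (adjusted p = 0.294). The desaturases had negative values that did not pass, -0.53 ± 0.16 for Scd2 (adjusted p = 0.108) and -0.60 ± 0.28 for Scd1 (adjusted p = 0.337), each below the nondiabetic median in 19 of 23 Akita libraries. Elovl6 had -0.27 ± 0.19 and Acaca -0.11 ± 0.12. Scd2 and Elovl6 were higher in libraries with more markers of other cell types (r = 0.54 and 0.50 within groups, rho 0.55 and 0.48), and the part of those cells in their difference was not tested beyond the fits with a covariate.

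**Figure D2:**
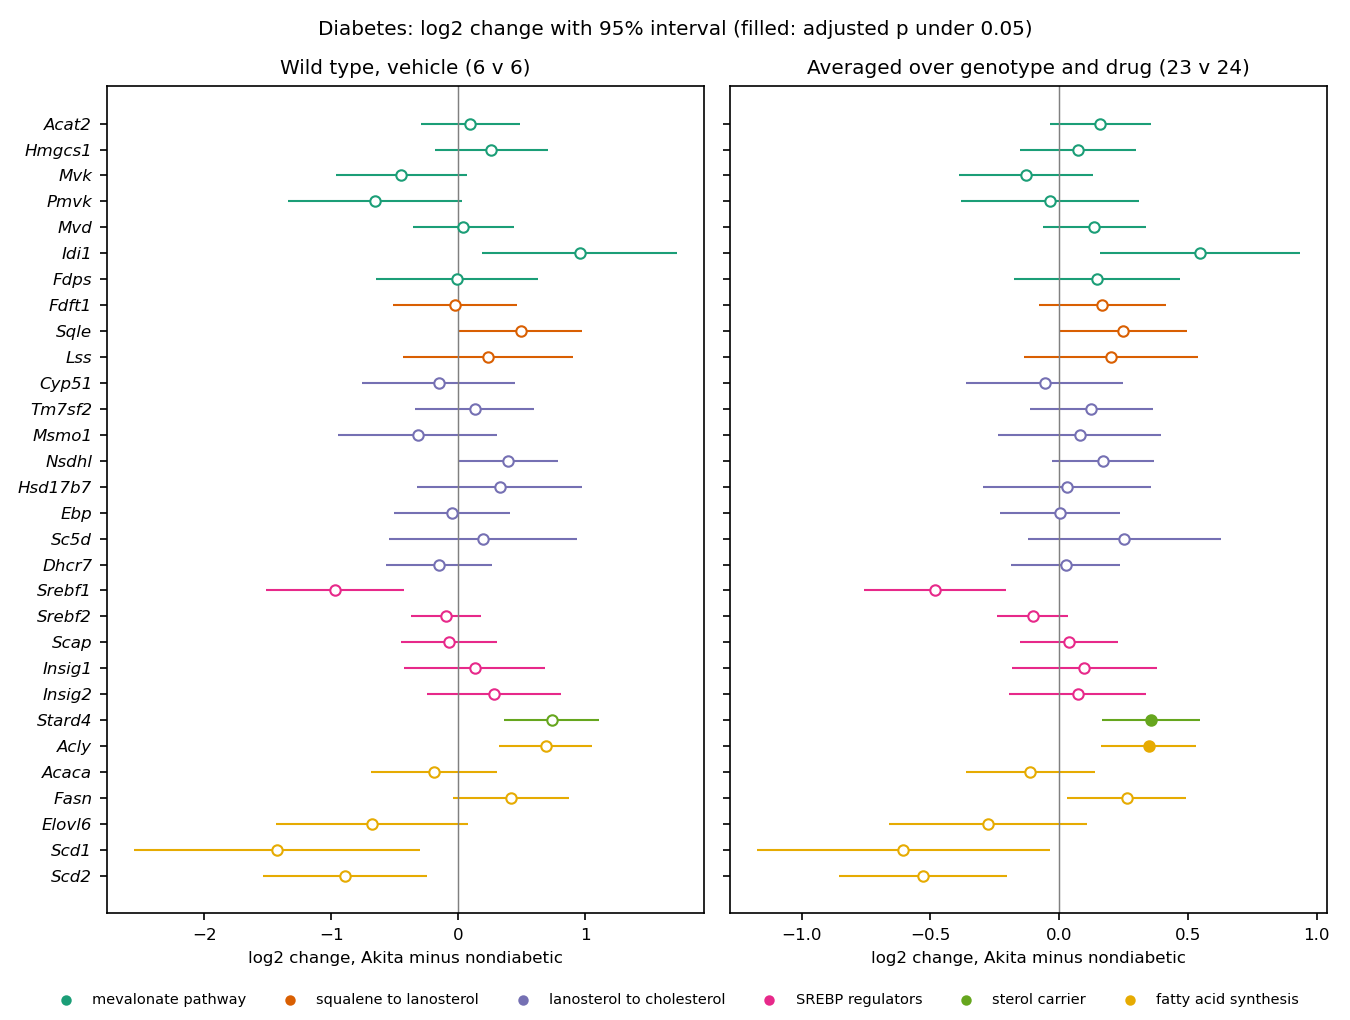
Log2 change of each of the 30 genes (Akita minus nondiabetic) with its 95% interval, for wild-type vehicle libraries (6 against 6) and averaged over genotype and drug (23 against 24), coloured by role. Filled points passed an adjusted p under 0.05: Stard4 and Acly in the averaged comparison, none in the other.

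Within wild-type mice on vehicle, 6 Akita against 6 nondiabetic libraries, differences were larger and none of the 30 members passed in limma, where 60 genes did (0.389% of those tested). An unadjusted p below that limit was found for 7 members, 4 higher and 3 lower, against 10.2% of all genes. Acly was between 131 and 173 TPM in Akita (median 158) and between 65.2 and 127 TPM in nondiabetic libraries (median 97.1). It was the only member whose groups did not overlap, as for 0.733% of all genes. Its log2 change was 0.69 ± 0.18 (adjusted p = 0.0758). Stard4 was at 27.4 to 53.8 TPM (median 40.1) against 16.5 to 41.1 TPM (median 21.0), a change of 0.74 ± 0.19 (adjusted p = 0.0608). It passed without nondiabetic wild-type vehicle replicate 1 or 5 or Akita wild-type vehicle replicate 4 (adjusted p = 0.0491, 0.00723 and 0.0306), and Acly passed without nondiabetic replicate 4 (adjusted p = 0.0409).

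Srebf1 was at 13.8 to 27.9 TPM in the Akita wild-type vehicle libraries (median 16.4) and at 26.3 to 49.6 TPM in the nondiabetic ones (median 41.5). The groups overlapped only between 26.3 and 27.9 TPM, and all 6 Akita libraries were below the nondiabetic median, with a log2 change of -0.97 ± 0.27 (adjusted p = 0.0962). The ratio of Srebf1 to Srebf2 was 0.375 ± 0.0786 (SD, n = 6) against 0.712 ± 0.182. Scd1 was at 13.2 to 214 TPM (median 40.3) against 32.4 to 222 TPM (median 158). Akita replicate 3 held 214 TPM and the next highest 56.2, and the change was -1.43 ± 0.56 (adjusted p = 0.337). Scd2 was at 2.58 to 12.8 TPM (median 3.79) against 6.21 to 17.8 TPM (median 9.83), a change of -0.89 ± 0.32 (adjusted p = 0.280). Idi1 had 0.96 ± 0.38 (adjusted p = 0.348) and Sqle 0.49 ± 0.24 (adjusted p = 0.482).

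In the other matched pairs of groups the same members had smaller values, and limma called none of them. In knockout mice on vehicle 0 genes of the table passed (0%), and 2 members, Stard4 (0.46 ± 0.19) and Sc5d (0.76 ± 0.37), had an unadjusted p under 0.05, against 6.65% of all genes. In wild-type mice on dapagliflozin 1 gene passed (0.00648%), and in knockout mice on dapagliflozin 0 genes did (0%). At an unadjusted p under 0.05 there were 0 members in either, against 3.46 and 5.12% of all genes. The other members with the smallest p each way had -0.34 ± 0.25 in knockout vehicle (Acaca), 0.24 ± 0.20 (Scap), -0.65 ± 0.34 (Scd2) and -0.36 ± 0.28 (Insig2) in wild-type dapagliflozin, and 0.55 ± 0.33 (Lss) and -0.31 ± 0.32 (Scd2) in knockout dapagliflozin mice. Acly had log2 changes of 0.21, 0.30 and 0.20 in these 3 comparisons, Stard4 0.46, -0.043 and 0.28, and Srebf1 -0.43, -0.30 and -0.23. The sign of the change was thus the same in all 4 pairs for Acly and Srebf1 and differed in 1 pair for Stard4.

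**Figure D3:**
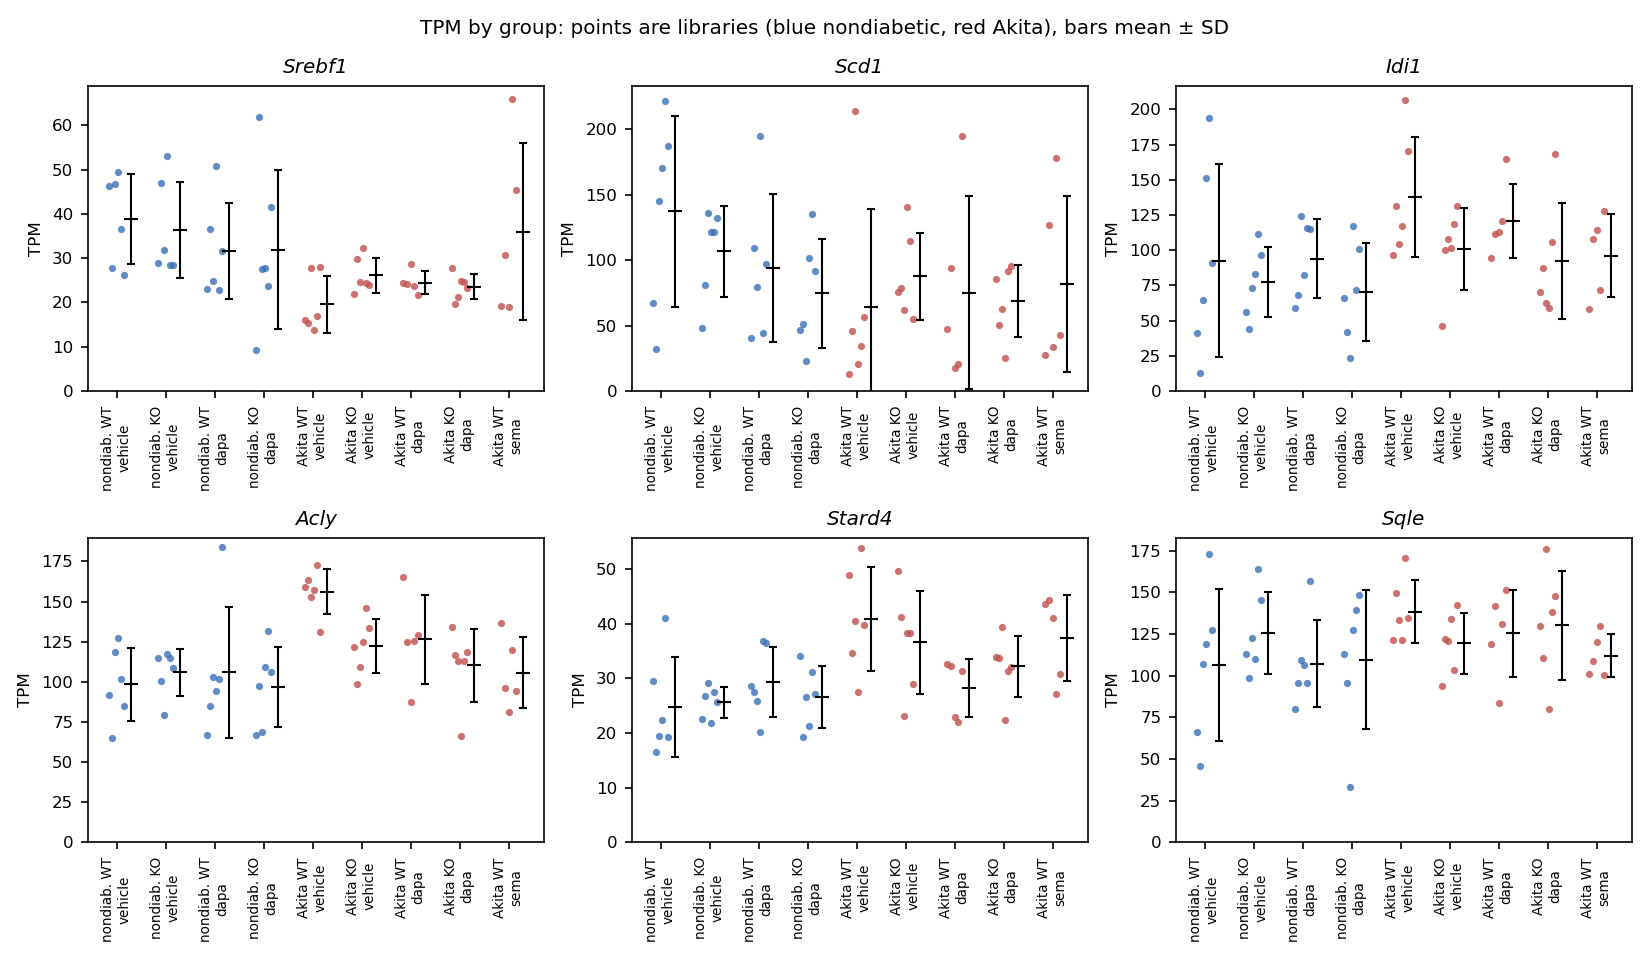
TPM of Srebf1, Scd1, Idi1, Acly, Stard4 and Sqle in each group, 1 point per library (blue nondiabetic, red Akita), with the mean and SD in black. Axes start at 0 and cut the lower SD bar of Scd1 in Akita wild-type vehicle libraries; Srebf1 is lowest and Acly highest in the Akita wild-type vehicle group.

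Loss of Sglt1 was examined in the 4 matched pairs of groups and over all of them. No member passed in limma in any of these comparisons. Over all pairs 8 genes of the table passed (0.0519%), and in the single pairs 3 (0.0195%, nondiabetic vehicle), 4 (0.0259%, Akita vehicle), 5 (0.0324%, nondiabetic dapagliflozin) and 3 (0.0195%, Akita dapagliflozin). At an unadjusted p under 0.05 there was 1 member over all pairs, against 7.22% of all genes. This was Acat2, acetyl-CoA acetyltransferase, with a log2 change of -0.20 ± 0.098 (adjusted p = 0.677). There were 0 members in each single pair, against 5.20, 3.10, 6.94 and 3.30% of all genes. Idi1 had -0.34 ± 0.19 over all pairs, and Acaca and Elovl6 had the smallest p of the higher members, at 0.15 ± 0.12 and 0.17 ± 0.19. Scd1 had the largest value in a single pair, 0.97 ± 0.56 in Akita vehicle mice (adjusted p = 0.999), where its wild-type libraries ranged from 13.2 to 214 TPM and the knockout ones from 54.8 to 141 TPM. In the same mice Srebf1 had 0.44 ± 0.27, Acly -0.36 ± 0.18 and Idi1 -0.46 ± 0.38. In nondiabetic vehicle mice the values with the smallest p were 0.34 ± 0.24 for Sqle, 0.32 ± 0.25 for Acaca, -0.53 ± 0.32 for Scd2 and -0.29 ± 0.19 for Acat2. In Akita dapagliflozin mice they were 0.36 ± 0.22 for Dhcr7, 0.39 ± 0.34 for Scd2, -0.37 ± 0.25 for Tm7sf2 and -0.46 ± 0.40 for Idi1. In nondiabetic dapagliflozin mice they were 0.20 ± 0.24 for Fdft1, 0.17 ± 0.38 for Elovl6, -0.39 ± 0.23 for Ebp and -0.29 ± 0.19 for Acat2. There 24 of 30 members were below 0, with a median of -0.11 against -0.026 for all genes, of which 45.8% were above 0. That median was 0.20 when libraries were set to the same total without mitochondrial genes, and -0.031 without nondiabetic wild-type dapagliflozin replicate 6.

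Dapagliflozin against vehicle gave no member past the test in limma over the 4 pairs of groups (0% of all genes called), nor in Akita wild-type, Akita knockout or nondiabetic knockout mice (0% each) or in nondiabetic wild-type mice (0.00648%). At an unadjusted p under 0.05 there were 0 members over all pairs, against 4.09% of all genes. The same count was 1 in Akita wild-type mice, against 2.39%, and 0 in nondiabetic wild-type, nondiabetic knockout and Akita knockout mice, against 7.03, 4.74 and 3.13%. The 1 member was Stard4. Its 5 libraries on dapagliflozin held 32.5, 32.3, 22.9, 21.99 and 31.3 TPM, all below the vehicle median of 40.1 TPM, and the log2 change was -0.51 ± 0.20 (adjusted p = 1.00). Acly had -0.32 ± 0.19 there, with 166, 125, 87.6, 125 and 129 TPM on the drug. Over all pairs Dhcr7, which makes cholesterol from its last precursor, had -0.21 ± 0.10, Acly -0.15 ± 0.092, Insig2 0.16 ± 0.13 and Hsd17b7, a sterol ketoreductase, 0.13 ± 0.16. In nondiabetic wild-type mice Insig2 had 0.45 ± 0.26, Stard4 0.27 ± 0.19, Fdft1 -0.43 ± 0.24 and Dhcr7 -0.34 ± 0.21. In Akita knockout mice Elovl6 had 0.41 ± 0.38, Scd2 0.30 ± 0.32, Tm7sf2 -0.45 ± 0.23 and Sc5d -0.63 ± 0.37. In nondiabetic knockout mice Insig2 had 0.36 ± 0.26, Scd2 0.36 ± 0.32, Lss -0.52 ± 0.33 and Acaca -0.33 ± 0.25. There 25 of 30 members were below 0, with a median of -0.18 against -0.021 for all genes, of which 46.1% were above 0. The median was -0.032 without nondiabetic knockout dapagliflozin replicate 3 and -0.029 with array weights. The nondiabetic knockout dapagliflozin libraries also gave the 24 of 30 members below 0 for loss of Sglt1, so these counts are not independent. Against the same libraries, Akita knockout dapagliflozin libraries had 23 of 30 members above 0. That median was 0.17 (0.062 to 0.22 in the other fits), against 0.032 for all genes, of which 55.4% were above 0.

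Whether diabetes and the drug or the genotype modified each other was tested by interaction terms, and limma called no member in any of them. In diabetes by dapagliflozin 1 gene of the table passed (0.00648%), and in diabetes by knockout, knockout by dapagliflozin and diabetes by dapagliflozin in wild-type mice 0 genes did (0% each). At an unadjusted p under 0.05 there were 1, 0, 0 and 1 members, against 4.51, 3.33, 3.97 and 4.42% of all genes. Both times the member was Stard4. Its change with dapagliflozin was lower in Akita than in nondiabetic mice by 0.48 ± 0.19 log2 units (value -0.48, adjusted p = 0.979), and within wild-type mice the value was -0.78 ± 0.27 (adjusted p = 0.999). For Srebf1 the second value was 0.67 ± 0.39 and for Pmvk 0.98 ± 0.49, neither past the test, and for Insig2 it was -0.64 ± 0.38. In diabetes by knockout Scd1 had 0.90 ± 0.57, Scd2 0.49 ± 0.32, Acly -0.29 ± 0.18 and Hsd17b7 -0.35 ± 0.33. In knockout by dapagliflozin Scd2 had 0.43 ± 0.32, Fdft1 0.28 ± 0.25, Tm7sf2 -0.36 ± 0.24 and Ebp -0.34 ± 0.23.

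Semaglutide was compared with vehicle in Akita wild-type mice, 5 against 6 libraries. The vehicle libraries are the same as in the diabetes comparison, so the values of the 2 comparisons are not independent. Limma called 0 members and 0 genes (0%). At an unadjusted p under 0.05 there were 4 members, 3 higher and 1 lower, against 5.19% of all genes. Srebf1 held 19.2, 30.7, 18.9, 66.1 and 45.3 TPM on semaglutide, all above the vehicle median of 16.4 TPM. Of these values 3 were above every vehicle library and 2 were inside the vehicle range, and the log2 change was 0.74 ± 0.28 (adjusted p = 0.810). The 6 vehicle libraries are those that gave -0.97 for diabetes. Mitochondrial rRNA, which Srebf1 ran against within groups (r = -0.50), took from 20.3 to 52.3% on semaglutide and from 32.2 to 45.8% on vehicle. Its part in the Srebf1 values was not tested beyond the fits with a covariate. Acly held 136, 96.2, 81.5, 120 and 94.2 TPM on semaglutide, 4 of them below all 6 vehicle libraries, and had -0.58 ± 0.19 (adjusted p = 0.689).

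Acaca was the only member whose semaglutide and vehicle libraries did not overlap, as for 0.746% of all genes, at 22.8 to 33.5 against 9.11 to 22.6 TPM (0.54 ± 0.26, adjusted p = 0.942). Srebf2 had 0.32 ± 0.14 (adjusted p = 0.942), with 48.6 to 77.4 TPM on semaglutide and 40.2 to 64.8 on vehicle. All 5 regulators were above 0, with a median of 0.14, while 5 of 7 mevalonate enzymes were below 0, with a median of -0.24. Of all genes 48.6% were above 0, with a median of -0.0081. Mitochondrial rRNA was at 36.3% on semaglutide and 40.1% on vehicle, and markers of several other cells were higher. These were 5 of 5 of the S1 and S2 segments (median log2 change 0.36, summed 266 to 730.2 against 181 to 494 TPM), 3 of 3 of podocytes (0.44, 14.7 to 31.96 against 9.11 to 28.5 TPM) and 6 of 7 of macrophages and dendritic cells (0.24, 300.4 to 528 against 312 to 405 TPM), and none passed. The macrophage and dendritic cell sum is mostly Csf1r, as above. The part of these other cells in the members' values was not tested beyond the fits with a covariate. Against dapagliflozin in the same mice, semaglutide gave 0 members and 0 genes (0%), and 1 member at an unadjusted p under 0.05 against 3.52% of all genes. That member was Srebf2, at 0.34 ± 0.15, with dapagliflozin libraries from 42.8 to 60.5 TPM. Stard4 had 0.39 ± 0.20, Acly -0.25 ± 0.20 and Acat2 -0.26 ± 0.21.

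**Figure D4:**
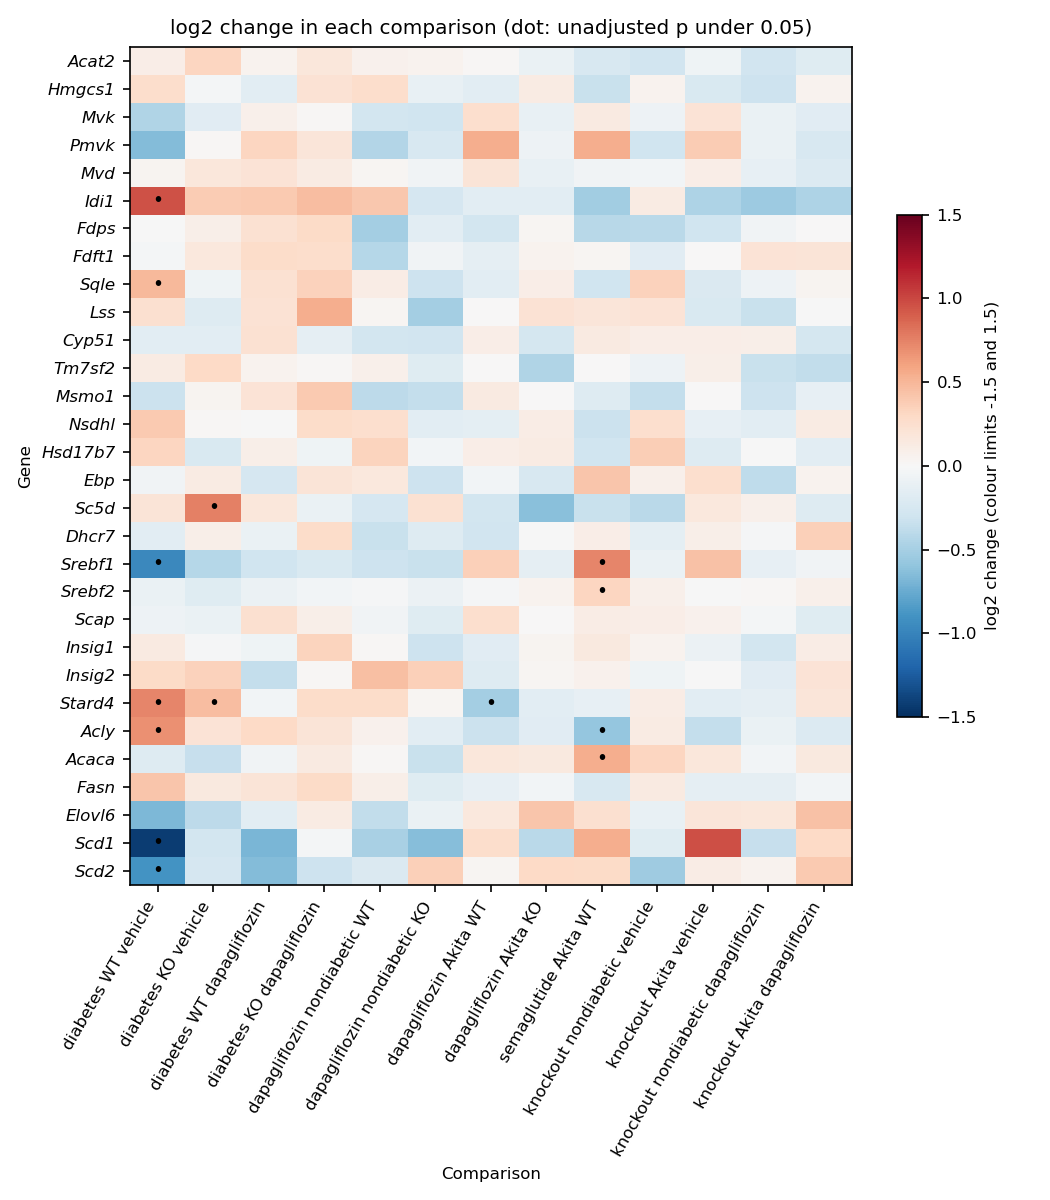
Log2 change of each gene (rows) in 13 comparisons (columns), red for higher and blue for lower. Dots mark an unadjusted p under 0.05, and no cell passed the adjusted threshold; the dots are most frequent for diabetes in wild-type vehicle mice, with 7.

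Other genes around the route were read from 5 lists, 43 genes in all. In diabetes over all pairs, 1 of them rose past the test, Mid1ip1, whose protein activates acetyl-CoA carboxylase, and 0 fell past it. Of all genes, 0.784% were called higher and 0.182% lower. An unadjusted p under 0.05 was found for 9 of the 43, against 13.4% of all genes. Mid1ip1 averaged 21.0 TPM in Akita and 14.03 TPM in nondiabetic libraries, a log2 change of 0.52 ± 0.13 (adjusted p = 0.0390), above the nondiabetic median in 18 of 23 Akita libraries. Its group means in Akita and nondiabetic mice were 29.4 ± 9.12 and 16.2 ± 6.24 TPM in wild type on vehicle, 16.3 ± 5.02 and 10.8 ± 2.99 in knockout on vehicle, 20.9 ± 5.88 and 13.8 ± 4.30 in knockout on dapagliflozin, and 16.5 ± 3.03 and 15.3 ± 3.53 in wild type on dapagliflozin, where the log2 change was 0.11 ± 0.27. With single libraries left out it passed in 30 of 47 fits (adjusted p from 0.0157 to 0.0644, log2 change from 0.47 to 0.56). Of 6 genes of SREBP cleavage and INSIG breakdown 6 were above 0 (median 0.12), of 5 genes supplying acetyl-CoA and NADPH 4 (0.21), of 13 genes of elongation, desaturation and glycerolipid synthesis 8 (0.088), of 12 genes of sterol uptake, storage, sensing and efflux 5 (-0.015), and of 7 genes of isoprenoid branches 3 (-0.067). In the other 20 comparisons 0 of the 43 passed in limma, and at an unadjusted p under 0.05 there were at most 7. Those 7 were in diabetes in wild-type vehicle mice, where 10.2% of all genes had such a p.

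The sterol enzymes varied together between libraries of the same group, with lower values among the fatty acid genes. After group means were removed, pairs of the 18 sterol enzymes had a median r of 0.31, with 22.9% of 153 pairs above 0.5. Pairs of a member with any tested gene had a median of 0.033 and 3.04% above 0.5. The fatty acid genes had a median of 0.066 over 15 pairs. These are descriptions over 52 libraries that share a scale and a cell makeup, with no test. When the score of other cell types was removed as well, the median of the sterol enzymes was 0.22, with 9.80% above 0.5, against 0.022 and 1.52% for members with all genes.

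The strongest pairs were Sqle with Insig1 (r = 0.78, rho = 0.72) and Cyp51 with Scap (r = 0.78, rho = 0.65), then Idi1 with Sqle (0.77, 0.69) and Msmo1, a sterol demethylase component, with Insig1 (0.76, 0.74). Without the 3 libraries that stood apart these 4 were 0.69, 0.59, 0.58 and 0.68. Acly went with Fasn (0.68, rho 0.64). Srebf2, whose protein drives the sterol enzymes, had a median r of 0.043 with the other members at the RNA level, and Srebf1 one of 0.16. Sqle had the highest, 0.49, and Idi1 had 0.46. Elovl6 and Scd2 ran against the rest, with medians of -0.35 and -0.24, and Elovl6 was at -0.64 with Cyp51 (rho -0.53).

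**Figure D5:**
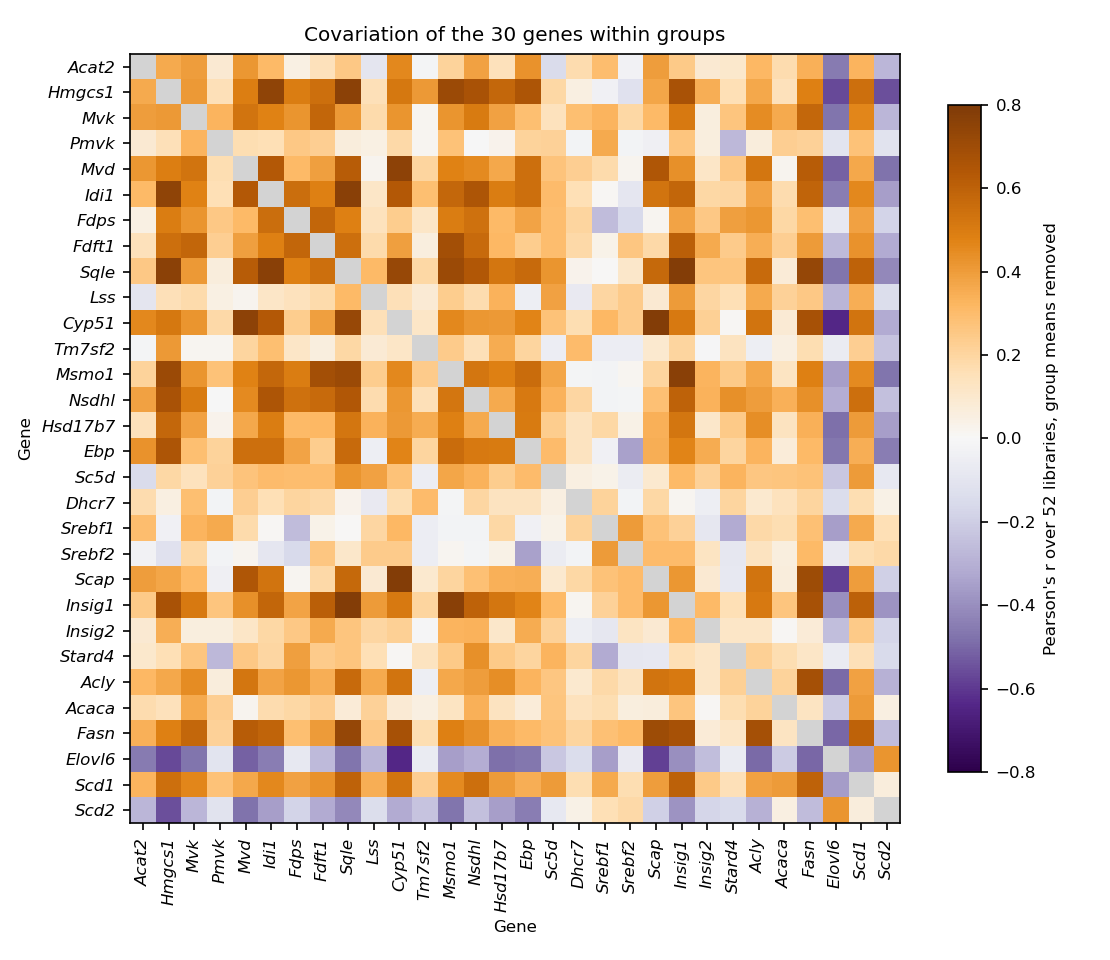
Pearson's r between each pair of the 30 genes over 52 libraries after group means were removed, orange for positive and purple for negative; the diagonal is grey. Most pairs of sterol enzymes are positive, while the rows of Elovl6 and Scd2 are mostly negative.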

How the data were processed

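RNA libraries of the S3 proximal tubule were described by 54 samples in 9 groups, and 52 of them had a column of values. Of the Akita wild-type mice, replicate 2 on dapagliflozin and replicate 1 on semaglutide were not analysed here. The values are log10 TPM deposited by the authors, on build GRCm38 per the submitters' processing notes. Depth is unknown, since aligner, annotation, strand setting and read number were not given in the sources used here. Per the labels' protocols, libraries came from total RNA with a stranded low-input kit.

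Values were turned back to TPM, the 69605 blank cells were taken as 0, and limma 3.58.1 fitted a mean for each of 9 groups to log2(TPM + 1) (R 4.3.3; empirical Bayes, robust, with a mean-variance trend) for 21 comparisons. Tests covered the 15424 genes whose mean reached 1 TPM, with Benjamini-Hochberg adjustment over all of them. Changes are on the log2(TPM + 1) scale, which understates those of low genes. The fit was tested on simulated data. Figures used Python 3.11.15, pandas 2.3.3 and matplotlib 3.10.9. Promoters came from RefSeq (GRCm38.p6) and exon overlaps from GENCODE vM21.

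Replicates were numbered in accession order. Members and lists were chosen with earlier results of these data known. Named in each comparison are members past the test or, with fewer than 3, up to 2 each way by smallest p, beside the highest and lowest member of each role, paralog pairs, and listed pathway genes past the test. Further members are described by role and were chosen after their values were seen. Alternatives were a pseudocount of 0.1, no filter, 2 other scalings, array weights, fitting only the compared groups, 5 covariates, each library left out, and 3 libraries left out. A macrophage score as a covariate was chosen after seeing the data.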

Additional observations from a re-analysis of the deposited data

Results flagged for a closer look

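Of 270 sets of 1 gene in 1 group, 24 (8.89%) held a library far from the others by Dixon's gap test at 95%, which flags about 1 in 20 sets by chance. In the nondiabetic wild-type vehicle group, Tm7sf2 was highest in replicate 6 (14.3 TPM, next 8.55) and Nsdhl was highest in replicate 5 (60.9 TPM, next 31.3). In the nondiabetic knockout vehicle group, Mvk was highest in replicate 4 (35.8 TPM, next 21.9) and Dhcr7 was highest in replicate 2 (15.7 TPM, next 10.8). In the nondiabetic wild-type dapagliflozin group, Insig2 was lowest in replicate 2 (10.8 TPM, next 16.8) and Acly was highest in replicate 6 (184 TPM, next 103). Elovl6 was highest in replicate 1 (6.92 TPM, next 2.76). In the nondiabetic knockout dapagliflozin group, Mvd was lowest in replicate 3 (18.5 TPM, next 32.8) and Fdps was lowest in replicate 2 (4.30 TPM, next 14.4). Dhcr7 was highest in replicate 6 (16.6 TPM, next 9.42) and Scap was lowest in replicate 3 (51.99 TPM, next 118). In the Akita wild-type vehicle group, Fdft1 was highest in replicate 5 (20.0 TPM, next 13.6) and Nsdhl was highest in replicate 5 (61.0 TPM, next 39.6). Acaca was lowest in replicate 1 (9.11 TPM, next 18.5) and Scd1 was highest in replicate 3 (214 TPM, next 56.2). In the Akita knockout vehicle group, Idi1 was lowest in replicate 1 (46.3 TPM, next 99.9) and Nsdhl was highest in replicate 4 (48.0 TPM, next 37.7). In the Akita wild-type dapagliflozin group, Sc5d was highest in replicate 3 (15.7 TPM, next 4.62) and Insig1 was lowest in replicate 4 (21.4 TPM, next 38.1). Scd2 was highest in replicate 6 (9.64 TPM, next 4.66). In the Akita knockout dapagliflozin group, Hsd17b7 was lowest in replicate 4 (3.01 TPM, next 15.8) and Acly was lowest in replicate 4 (66.6 TPM, next 113). Fasn was highest in replicate 1 (107 TPM, next 80.4). In the Akita wild-type semaglutide group, Ebp was highest in replicate 4 (93.1 TPM, next 66.8). No library carried more than 2 of these values, and the interaction terms gave no member past the test.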

How the results depend on the processing

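In limma, the count of members called for diabetes over all pairs was 2. It was 0 with no filter, with median ratio rescaling, with the same total without mitochondrial genes, with only the compared groups, with the score of other cell types, Plin4 or the log2 sum of TPM as a covariate, without the 3 libraries that stood apart, and with a macrophage score as a covariate, which was chosen after seeing the data. It was 1 with mitochondrial rRNA as a covariate, where Acly passed and Stard4 did not, and 3 with the S1 and S2 score, where Idi1 passed too. With single libraries left out it ranged from 0 to 2 over 47 fits: 0 in 26, 1 in 14 and 2 in 7. The 7 were those without nondiabetic wild-type vehicle replicate 5, nondiabetic wild-type dapagliflozin replicate 6, nondiabetic knockout dapagliflozin replicate 1 or 5, Akita wild-type dapagliflozin replicate 4, Akita knockout vehicle replicate 3, or Akita knockout dapagliflozin replicate 4. Without nondiabetic knockout dapagliflozin replicate 1 the members called were Stard4 and Srebf1, and Acly had an adjusted p of 0.0767. The log2 change of Stard4 stayed between 0.28 and 0.40 and that of Acly between 0.25 and 0.39. Their adjusted p ranged from 0.0112 to 0.337 and from 0.00881 to 0.522. For diabetes in wild-type vehicle mice the count of 0 ranged from 0 to 1 with single libraries left out. Counts in the other 19 comparisons were 0 in every fit. Mid1ip1, run after seeing the data, passed in 10 of 13 other settings and did not with median ratio rescaling, the same total or the macrophage score (adjusted p = 0.0649, 0.161 and 0.0980).

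The same total without mitochondrial genes moved the median change of all genes by up to 0.40 (-0.22 for diabetes in wild-type vehicle, 0.22 for semaglutide, 0.29 for knockout in nondiabetic dapagliflozin, -0.25 for dapagliflozin in nondiabetic wild type, 0.40 for diabetes by dapagliflozin in wild type). With it the members' medians moved to 0.20 for knockout in nondiabetic dapagliflozin, -0.25 for dapagliflozin in nondiabetic wild type and 0.42 for the wild-type interaction. Without the 3 libraries the median for dapagliflozin in nondiabetic wild type was -0.29; the cause was not tested. Some single values that did not pass changed sign. Sqle for knockout in nondiabetic vehicle was -0.064 without the 3 libraries. For knockout in nondiabetic dapagliflozin, Elovl6 was -0.14 with array weights, -0.070 without the 3 libraries or replicate 3 alone and -0.014 without replicate 1 of the knockout group (up to 0.48 with other single libraries left out), and Acat2 was 0.025 with the same total. Stard4 was -0.00040 (same total) and -0.027 (sum of TPM) for dapagliflozin in nondiabetic wild type, and 0.12 and 0.13 for semaglutide, from -0.12. No paired analysis was possible because no label links a library of 1 group to one of another, and replicate numbers are names only. Depth is unknown, and low genes such as Elovl6 are limited by it.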
